A study of Homo sapiens with 18 samples.

Results

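The genes for the kallikrein-related peptidases KLK5 to KLK14 were followed through MCF10A cells that had lost CBFB or RUNX1. The 10 members were found in the deposited tables of knockout against wild type (WT) by their gene symbol, joined between tables by Entrez ID. Of the 10, 9 were listed in at least 1 table and 8 in every table, among 19401 genes listed in any table. KLK12 was not listed in any of the 3 tables, and KLK13 was not listed for the CBFB knockout.

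Kallikrein-related peptidases are secreted serine proteases made as inactive zymogens, whose genes stand side by side on chromosome 19. In stratified epithelia they form a cascade in which trypsin-like members such as KLK5 cut and activate other members, and chymotrypsin-like KLK7 cuts the junction proteins that hold the outermost cells together. Their activity is held back by inhibitors such as SPINK5, and several of the genes are also known from normal mammary epithelium. RUNX1 is a transcription factor, and CBFB is the partner protein that strengthens its binding to DNA.

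MCF10A is an immortalized, non-tumorigenic human mammary epithelial line. The 5 groups were CBFB KO (3 samples), CBFB WT (3), RUNX1 KO1 (4), RUNX1 KO2 (4) and RUNX1 WT (4), 18 samples in all. All were untreated cells under passage 30, grown with horse serum, insulin, EGF, hydrocortisone and cholera toxin. The knockouts were made by CRISPR-Cas9 and picked as single-cell colonies, with 1 clone for CBFB and 2 clones for RUNX1, so a property of a clone and the loss of its gene cannot be told apart. Nothing in the labels ties the repeats to separate cultures, and the p-values then measure only the spread between these samples. KO1 and KO2 were compared with the same WT samples. No value per library was in the tables. Each gene had a mean of normalized reads over the libraries compared, a log2 fold change, the standard error (SE) of that change and an adjusted p-value. The WT and knockout levels given here were computed from the mean and the fold change.

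The means summed to 20214423 (CBFB), 18050386 (KO1) and 16467400 (KO2) normalized reads per library. An adjusted p-value was present for 14975, 16394 and 15636 genes. CBFB mRNA was lower by a log2 fold change of -4.88 in CBFB KO, whereas RUNX1 mRNA was higher by 0.54 in KO1 and 0.46 in KO2, so mRNA level does not check the RUNX1 labels. The basal epithelial keratin KRT5 had means from 87894 to 101688 normalized reads, while the leukocyte gene PTPRC had a mean of 0.464 in the CBFB table and was not listed in the RUNX1 tables.

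The promoters of KLK5, KLK7 and KLK10, the members that passed the test in both RUNX1 clones, are shown because RUNX1 is a DNA-binding factor. Each runs from 250 bases before to 50 bases after an annotated start, on the minus strand of chromosome 19, from RefSeq on GRCh38.p14. Capitals mark a match to the RUNX core letters TGTGGT or TGCGGT on either strand, so a match on the other strand reads ACCACA or ACCGCA.
KLK5, chr19:50952989-50953288: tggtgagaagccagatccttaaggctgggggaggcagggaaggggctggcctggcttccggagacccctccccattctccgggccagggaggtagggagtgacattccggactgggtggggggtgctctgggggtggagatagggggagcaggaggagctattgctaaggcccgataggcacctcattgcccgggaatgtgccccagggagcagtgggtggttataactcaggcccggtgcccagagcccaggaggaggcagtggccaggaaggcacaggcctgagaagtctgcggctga
KLK7, chr19:50983868-50984167: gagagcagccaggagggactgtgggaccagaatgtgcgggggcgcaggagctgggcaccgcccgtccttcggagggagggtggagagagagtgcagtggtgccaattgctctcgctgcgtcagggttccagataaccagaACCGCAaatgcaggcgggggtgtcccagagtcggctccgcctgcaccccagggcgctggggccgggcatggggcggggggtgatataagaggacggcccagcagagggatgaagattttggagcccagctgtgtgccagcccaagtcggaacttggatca
KLK10, chr19:51019660-51019959: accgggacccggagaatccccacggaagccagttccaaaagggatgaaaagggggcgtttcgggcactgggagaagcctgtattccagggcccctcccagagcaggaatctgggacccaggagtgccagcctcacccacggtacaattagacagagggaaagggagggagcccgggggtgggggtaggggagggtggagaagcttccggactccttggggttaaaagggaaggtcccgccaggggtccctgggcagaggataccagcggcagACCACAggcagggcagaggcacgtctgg
The KLK5 window held neither form. In KLK7, TGCGGT lay on the other strand with its first base at position -110 from the start, and the same site fell into the windows of the other 2 annotated KLK7 starts. In KLK10, TGTGGT lay on the other strand at position 23, and the window of its other annotated start held no match. KLK6 held TGTGGT at position 3. TGTGGT was in 13.1% of the 35116 promoter windows of this length and TGCGGT in 7.29%. Either form was in 19.6% of all windows and in 5 of the 16 windows of the members, belonging to 3 of the 9 members with a window. KLK8 was not among the windows. These matches describe letters and not binding.

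KLK5 and KLK10 rose and KLK7 fell in both RUNX1 clones, whereas none of the 4 members tested in CBFB KO passed the test. Over all genes, 39.5% passed in KO1, 14.8% in KO2 and 19.7% in CBFB KO. The difference in response between CBFB KO and KO1 passed its own test for KLK5, KLK7 and KLK10. Between CBFB KO and KO2 it passed for KLK5 and missed for KLK7 and KLK10. These genes had means of 15.4, 6.17 and 8.80 normalized reads in the CBFB table. Deposited fold changes and SEs are drawn toward 0 at few reads, so these p-values may be too small. KLK14 fell in KO2. The members were also present at very different levels in the 2 experiments, with KLK5, KLK7, KLK8, KLK9 and KLK10 each over 32-fold higher in RUNX1 WT than in CBFB WT.

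KLK5, the trypsin-like protease that starts the cascade in skin, had the largest change among the members in KO2. Its level was 475 normalized reads in WT and 935 in KO1, as given by the KO1 table. By the KO2 table it was 483 in WT and 1360 in KO2. In KO1 the log2 change was 0.98 (SE 0.09, adjusted p = 2.1e-27), a 1.97-fold rise with a 95% interval from 1.75 to 2.22. In KO2 it was 1.49 (SE 0.24, adjusted p = 2.8e-08), a 2.82-fold rise with an interval from 2.03 to 3.91. In CBFB KO, KLK5 had 15.0 normalized reads against 15.8 in WT (log2 fold change -0.08, SE 0.29, adjusted p = 0.891), with an interval from 0.638-fold to 1.40-fold. The levels of the gene were thus far lower in the CBFB experiment, in knockout and WT alike.

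KLK7, the chymotrypsin-like protease that cuts corneodesmosin, moved the other way. It fell from 278 normalized reads in WT to 114 in KO1, a log2 change of -1.28 (SE 0.15, adjusted p = 2.83e-15) or 2.43-fold. In KO2 it fell from 263 to 154, a log2 change of -0.77 (SE 0.22, adjusted p = 0.00442) or 1.71-fold. In CBFB KO its level was 5.76 against 6.58 in WT (log2 fold change -0.19, SE 0.22, adjusted p = 0.612). The number of KLK5 reads per KLK7 read, which takes no account of transcript length, went from 1.71 in WT to 8.18 in KO1 and from 1.83 to 8.82 in KO2.

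KLK10, first described as a gene of normal mammary epithelium that many breast cancer lines lack, rose less than KLK5. It had 488 normalized reads in WT and 685 in KO1, a log2 change of 0.49 (SE 0.10, adjusted p = 1.65e-05). In KO2 it had 890 against 483 in WT, a log2 change of 0.88 (SE 0.26, adjusted p = 0.00844). In CBFB KO the level was 8.09 against 9.51 (log2 fold change -0.23, SE 0.23, adjusted p = 0.548). The estimated change in each clone was under 2-fold. The 95% interval ran from 1.22-fold to 1.61-fold in KO1, and from 1.29-fold to 2.64-fold in KO2, which includes 2-fold.

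KLK14, another trypsin-like protease that can activate other members, was measured on few reads. It fell from 13.2 normalized reads in WT to 6.70 in KO2, a log2 change of -0.98 (SE 0.35, adjusted p = 0.0346). In KO1 it had 9.68 against 13.8 in WT (log2 fold change -0.51, SE 0.30, adjusted p = 0.172), and the 95% interval ran from 0.469-fold to 1.05-fold. In CBFB KO it had 4.05 against 3.91 (log2 fold change 0.05, SE 0.26, adjusted p = 0.923).

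KLK8, a trypsin-like protease also known as neuropsin, and its neighbour KLK9 did not pass the test in either clone. KLK8 had 116 normalized reads in WT and 111 in KO1 (log2 fold change -0.06, SE 0.15, adjusted p = 0.785), and 142 against 115 in KO2 (0.30, SE 0.38, adjusted p = 0.739). KLK9 had 99.9 in WT and 89.3 in KO1 (log2 fold change -0.16, SE 0.16, adjusted p = 0.464), and 126 against 101 in KO2 (0.32, SE 0.38, adjusted p = 0.714). The KO1 intervals ran from 0.780-fold to 1.18-fold for KLK8 and from 0.717-fold to 1.11-fold for KLK9, so a 2-fold change lay outside both. The KO2 intervals reached 2.05-fold and 2.10-fold. In CBFB KO, KLK8 had 2.24 against 3.08 (log2 fold change -0.46, unadjusted p = 0.0261) and KLK9 had 2.15 against 2.90 (-0.43, unadjusted p = 0.0450), and neither had an adjusted p-value. In GENCODE release 29 a read-through gene on the same strand shares 747 of the 1865 exonic bases of KLK8 and 787 of the 840 of KLK9, so reads of the pair may be split in ways the tables do not show. Genes on the opposite strand overlap exons of KLK5, KLK6 and KLK10 by 202, 401 and 240 bases, and whether strand was used in counting is not given in the sources used here.

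KLK6, KLK11 and KLK13, other secreted trypsin-like members, were low throughout. KLK6 had 20.6 normalized reads in WT and 22.9 in KO1 (log2 fold change 0.15, SE 0.25, adjusted p = 0.675), and 39.3 against 21.8 in KO2 (0.85, SE 0.34, adjusted p = 0.0684). KLK11 had 7.08 in WT and 11.1 in KO1 (log2 fold change 0.65, SE 0.30, adjusted p = 0.0772), and 10.1 against 6.25 in KO2 (0.69, SE 0.36, adjusted p = 0.228). KLK13 had 1.82 in WT and 2.53 in KO1 (log2 fold change 0.47, SE 0.28, adjusted p = 0.183), and 2.03 against 1.39 in KO2 (0.55, SE 0.40, adjusted p = 0.458). All 3 of these genes missed the threshold in both clones. In CBFB KO, KLK6 (2.30 against 2.76 normalized reads) and KLK11 (1.73 against 1.74) had no adjusted p-value.

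**Figure D1:**
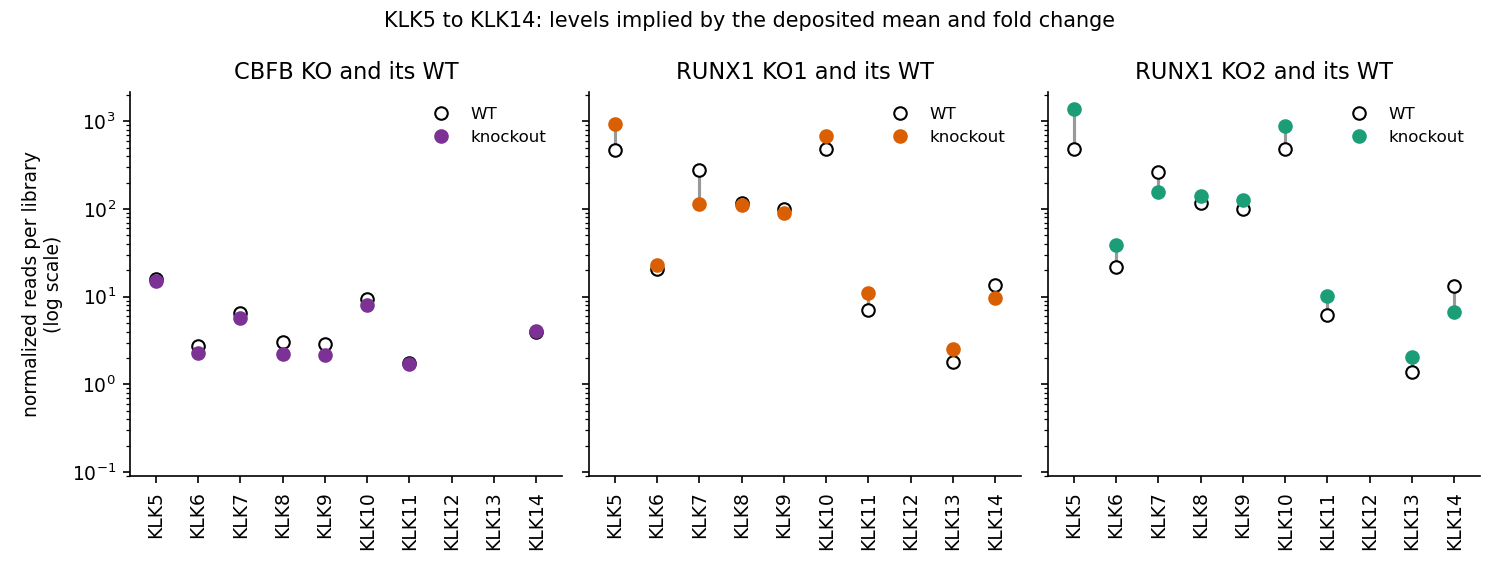
Levels of KLK5 to KLK14 in WT (open points) and knockout (filled points) as normalized reads per library on a log axis, computed from the deposited mean and fold change, with no error bars because the tables hold no value per library. KLK5 and KLK10 are the highest members in both RUNX1 panels, and in the CBFB panel no member is above 15.8 normalized reads.

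In KO1, 3 of the 9 members tested passed an adjusted p of 0.05, beside 39.5% of all genes, a share near the background. In KO2, 4 of 9 passed, beside 14.8% of all genes. In CBFB KO none of the 4 members tested passed, beside 19.7% of all genes, and none of those had an unadjusted p under 0.05 in the deposited Wald test. By direction, no member rose (11.7% of all genes) or fell (7.97%) in CBFB KO, 2 members rose in KO1 (19.7% of all genes) and 1 fell (19.9%), while in KO2 2 rose (8.76%) and 2 fell (6.08%). With a fold change of at least 2 required as well, 1 member was called in KO1, KLK7 (4.93% of all genes), 1 in KO2, KLK5 (5.48%), and none in CBFB KO (2.98%). KLK5 in KO1 was just under that fold, and removing a trend with transcript length and GC content placed it over the threshold at 1.10. The same step called KLK14 in KO2, at -1.21.

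The median log2 fold change of the members tested was -0.14 in CBFB KO (4 members), 0.15 in KO1 (9) and 0.55 in KO2 (9), beside -0.01, -0.00 and 0.02 over all genes tested. When members under a mean of 10 were left out, the KO1 median was -0.06, so its sign rested on the weakly expressed members.

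**Figure D2:**
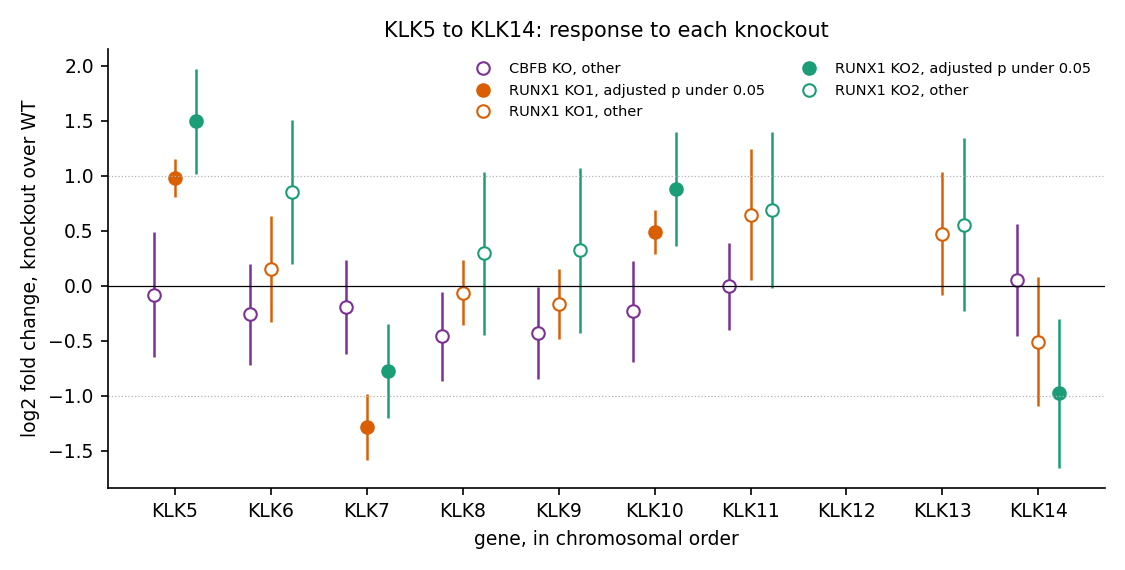
Log2 fold change of each member in each knockout against its WT, with 95% intervals from the deposited SE, genes in chromosomal order, filled points for an adjusted p under 0.05 and dotted lines at 2-fold. KLK5 and KLK10 lie above 0 and KLK7 below 0 in both RUNX1 clones, while the CBFB KO points lie between -0.46 and 0.05.

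The response of the members was compared between CBFB KO and each RUNX1 clone, whose libraries are separate. The difference of the log2 fold changes was divided by its combined SE and tested two-sided against the normal distribution, with Benjamini-Hochberg adjustment over all genes tested in both tables. Of the 4 members that could be tested, 3 differed between CBFB KO and KO1, beside 9.84% of 14940 genes. For KLK5 the CBFB KO response minus the KO1 response was -1.06 (SE 0.30, adjusted p = 0.0109). It was 1.09 (SE 0.27, adjusted p = 0.00198) for KLK7 and -0.72 (SE 0.25, adjusted p = 0.0476) for KLK10. Between CBFB KO and KO2, 1 of the 4 differed, beside 2.90% of 14503 genes. That was KLK5, at -1.57 (SE 0.38, adjusted p = 0.00255). KLK10 gave -1.12 with a 95% interval from -1.81 to -0.43 (adjusted p = 0.0522), KLK7 gave 0.58 with an interval from -0.02 to 1.19 (adjusted p = 0.582) and KLK14 gave 1.03 with an interval from 0.18 to 1.88 (adjusted p = 0.292). Deposited fold changes and their SEs are both drawn toward 0 for genes with few reads. In the CBFB table no gene with a mean from 1 to 10, the range of KLK7 and KLK10, exceeded 1.43. The median SE in that range was 0.24, below the 0.27 of genes with means from 10 to 100. The p-values of these differences may therefore be too small, by an amount that was not tested. With genes under a mean of 10 left out, KLK5 was the single member tested. Its response in CBFB KO, on a mean of 15.4 there, differed from both clones, under the same limit.

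The level of the members differed between the experiments before any knockout. In scaled reads, per 1000000 of the summed means, KLK10 stood at 0.470 in CBFB WT and 27.0 in RUNX1 WT, a 57.5-fold ratio. KLK5 stood at 0.784 and 26.3, a 33.6-fold ratio, and KLK7 at 0.326 and 15.4, a 47.3-fold ratio. KLK8 stood at 0.153 and 6.40, and KLK9 at 0.143 and 5.54, which are ratios of 42.0 and 38.6. These 5 members were at least 32-fold higher in RUNX1 WT. Of the 13917 genes whose mean reached 10 in either table, 0.0431% were so, 6 in number, and the 5 members are among these 6. KLK7, KLK8, KLK9 and KLK10 had means under 10 in the CBFB table. They entered the comparison only through the RUNX1 table, where they were high, so the share describes the members and does not test them. The other gene of the 6 was CXorf49B, named after its value was seen. The 32-fold cut was not given by the study. It lay below KLK5, at a log2 ratio of 5.07, and above the next gene, SPINK6, at 4.58, so the counts depend on it. Over the 13917 genes the median log2 ratio was -0.06, and the first and 99th percentiles were -1.60 and 1.55.

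**Figure D3:**
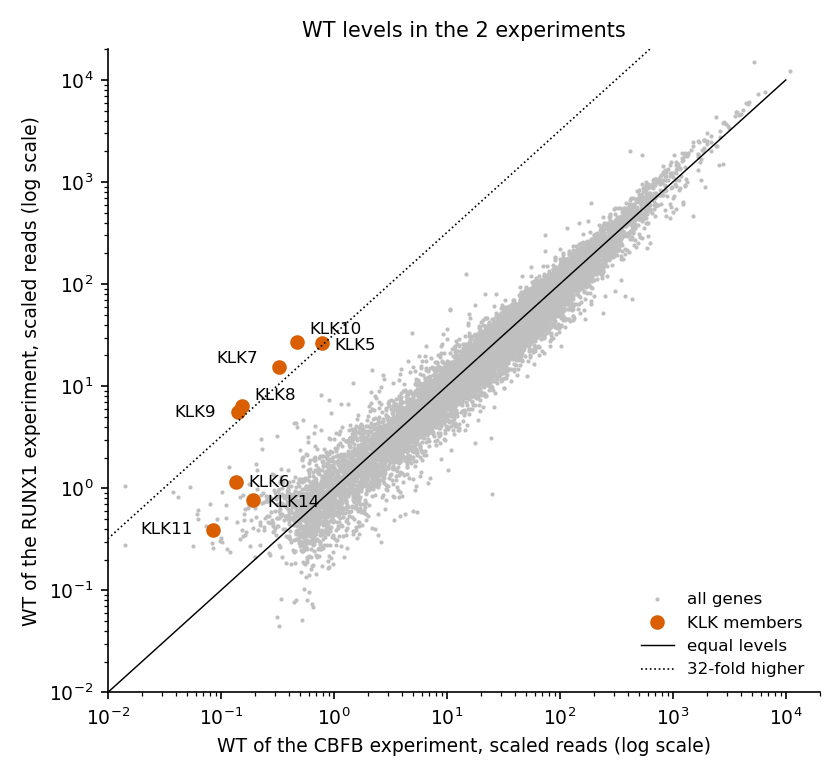
WT level of each gene in the CBFB experiment (horizontal) and in the RUNX1 experiment (vertical), in scaled reads (per 1000000 of the summed means), both on log axes, with all genes whose mean reached 10 in either table in grey. KLK5, KLK7, KLK8, KLK9 and KLK10 lie on or above the dotted 32-fold line, away from the line of equal levels.

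KLK6 was 8.37-fold higher in RUNX1 WT, KLK11 4.56-fold and KLK14 3.94-fold. The ratios of all members rest on few reads in the CBFB table. Its means there were 15.4 normalized reads for KLK5, 8.80 for KLK10 and 6.17 for KLK7. KLK8 had 2.66 and KLK9 2.52, about as few as KLK6 with 2.53, so the size of these ratios is imprecise. Levels taken from the KO2 table gave ratios from 4.14 for KLK14 to 62.4 for KLK10. Along the chromosome, KLK1 on one side of the members had a log2 ratio of 0.95 and CTU1 on the other side 1.03, against 5.07 for KLK5 and 1.98 for KLK14. The 7 genes beside the cluster whose mean reached 10 had log2 ratios from 0.46 to 1.44. The tables of the experiments were normalized separately and the WT samples were not compared in 1 fit, so this difference has no test, and the experiment, its cell stock and its library handling cannot be told apart. In bulk RNA, fewer cells that express a gene and less RNA per cell cannot be told apart either.

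**Figure D4:**
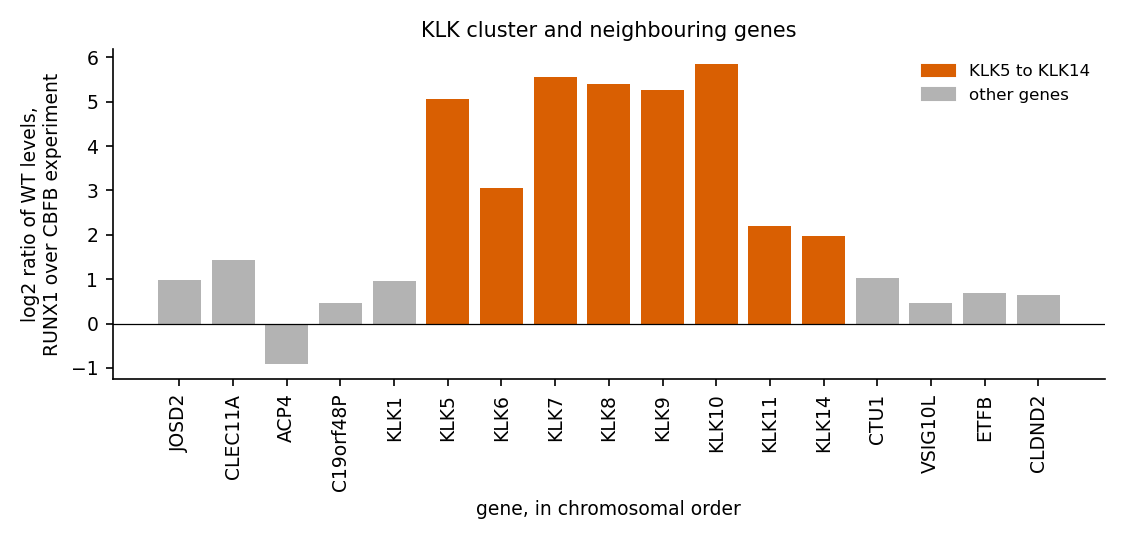
Log2 ratio of the WT level in the RUNX1 experiment over that in the CBFB experiment for the members (orange) and listed genes beside them (grey) with a mean of at least 1 in either table, in chromosomal order. The bars of KLK5 and KLK7 to KLK10 reach from 5.07 to 5.85, and those of KLK1 and CTU1 reach 0.95 and 1.03.

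Among the listed genes that act with the proteases or mark the cornified layer, none reached the ratios of KLK5 and KLK7 to KLK10, and some exceeded those of KLK6, KLK11 or KLK14. SPINK6, an inhibitor of kallikrein-related peptidases, had a log2 ratio of 4.58 between the WT groups on a mean of 0.743 in the CBFB table. The small proline-rich gene SPRR2D had 3.28, the inhibitor A2ML1 2.03 and the cross-linking enzyme TGM1 1.94. The 9 cornified layer genes in that comparison had a median of 1.12 and a range from -0.60 to 3.28, and the part of epithelial differentiation in the difference of the members was not tested.

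Compared per kilobase of the longest protein-coding transcript, RUNX1 WT held KLK5 at 16.8 scaled reads, KLK10 at 8.69, KLK7 at 8.06, KLK9 at 7.34 and KLK8 at 4.84. KLK14 at 0.673, KLK6 at 0.669, KLK11 at 0.291 and KLK13 at 0.109 were far lower. With a shorter transcript for each, KLK10 reached 17.9 (1508 bases in place of 3111) and KLK5 19.3 (1365 in place of 1563). The 2 genes were then closer, with KLK5 still the higher. KLK7 reached 14.6 with 1054 bases in place of 1912, and no spread over libraries was available to separate KLK7, KLK9 and KLK10. KLK5 and KLK10 together made up 74.2% (KO1 table) and 76.2% (KO2 table) of the members' reads. The members' summed level was 83.1 scaled reads in WT and 110 in KO1, and 90.4 in WT and 166 in KO2. In the CBFB experiment the sum was 2.29 in WT and 2.04 in the knockout. The 2 values for RUNX1 WT describe the same samples. Computed from the KO1 and KO2 tables, the WT level differed by 0.16 on the log2 scale for KLK5 and 0.12 for KLK10. Over the members this ran from 0.05 for KLK11 to 0.26 for KLK13. Over 10174 genes with a mean of at least 100 its standard deviation was 0.03.

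Among the 6 other genes of the family on the list (KLK1, KLK2, KLK3, KLK4, KLK15 and the pseudogene KLKP1), KLK1, which encodes tissue kallikrein, was the single one with an adjusted p-value. For CBFB KO its log2 fold change was -0.21 (adjusted p = 0.674). The clones gave 0.63 (KO1, adjusted p = 0.0525) and 1.02 (KO2, adjusted p = 0.0546). KLK2, KLK3 and KLK15, the first pair known from prostate, were not listed, and KLK4 and KLKP1 had means under 1. Of 18 genes beside the cluster, the tables for CBFB KO, KO1 and KO2 tested 7, 8 and 5. None passed in CBFB KO or KO2, beside 19.7% and 14.8% of all genes. In KO1, 1 rose and 3 fell, beside 19.7% and 19.9% of all genes. VSIG10L rose by 0.70 and CTU1, C19orf48 and ETFB fell by 0.54, 0.48 and 0.30.

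Inhibitors of the proteases were higher in each knockout where they passed the test. Of the 8 inhibitors on the list, 5, 6 and 6 were tested, and 3 rose in each knockout with none lower, beside 11.7%, 19.7% and 8.76% of all genes that rose. Their median log2 fold changes were 0.64, 0.32 and 0.56. This list and the lists below were chosen with earlier results of these data known. The counts beside all genes therefore describe the lists and do not test them. SPINK5, which encodes the inhibitor LEKTI, rose by 0.75 on the log2 scale in CBFB KO (adjusted p = 0.0355). The rise was 1.63 for KO1 (adjusted p = 7.57e-17) and 1.27 for KO2 (adjusted p = 3.86e-07). A2ML1, a broad protease inhibitor of the epidermis, went from 157 to 1287 normalized reads in KO1 (log2 fold change 3.04, adjusted p = 4.19e-177) and from 166 to 963 in KO2 (2.53, adjusted p = 6.28e-22). In CBFB KO its log2 fold change was 0.09 (adjusted p = 0.860), and the difference from KO1 was -2.95 (adjusted p = 1.64e-23).

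Of 6 proteases that can activate the zymogens, 3 were tested in each table, and 3, 2 and 2 rose, beside 11.7%, 19.7% and 8.76% of all genes. Their medians were 0.83, 0.28 and 0.63. ST14, which encodes matriptase, rose by 0.83, 0.46 and 0.63 (log2) in CBFB KO, KO1 and KO2, and PRSS8, which encodes prostasin, by 0.50, 0.28 and 0.98. PRSS3, which encodes mesotrypsin, had a log2 fold change of 1.13 in CBFB KO (adjusted p = 2.08e-10), and 0.27 and 0.54 in the clones, where it missed the threshold.

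Of 11 substrates and receptors, 7, 10 and 9 were tested, and 5, 7 and 4 rose with none lower, beside 11.7%, 19.7% and 8.76% of all genes. Their medians were 0.85, 0.88 and 0.70, and the counts describe a list chosen with earlier results known. IL1B, an inflammatory cytokine, rose by 4.85, 3.37 and 2.50 in CBFB KO, KO1 and KO2. FN1, which encodes fibronectin, rose by 0.97, 3.13 and 2.21, and PLAU, which encodes urokinase, rose by 2.09 in KO1 and 1.63 in KO2 and was not listed for CBFB KO. The receptor gene F2R rose in every table, by 0.99, 0.93 and 0.70. F2RL1, the receptor that KLK5 and KLK14 can cleave, rose by 0.46 in CBFB KO and had values of 0.25 and 0.02 in the clones. CDSN, which encodes the KLK7 substrate corneodesmosin, had values of -0.15, 0.12 and 0.68 that missed the threshold.

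**Figure D5:**
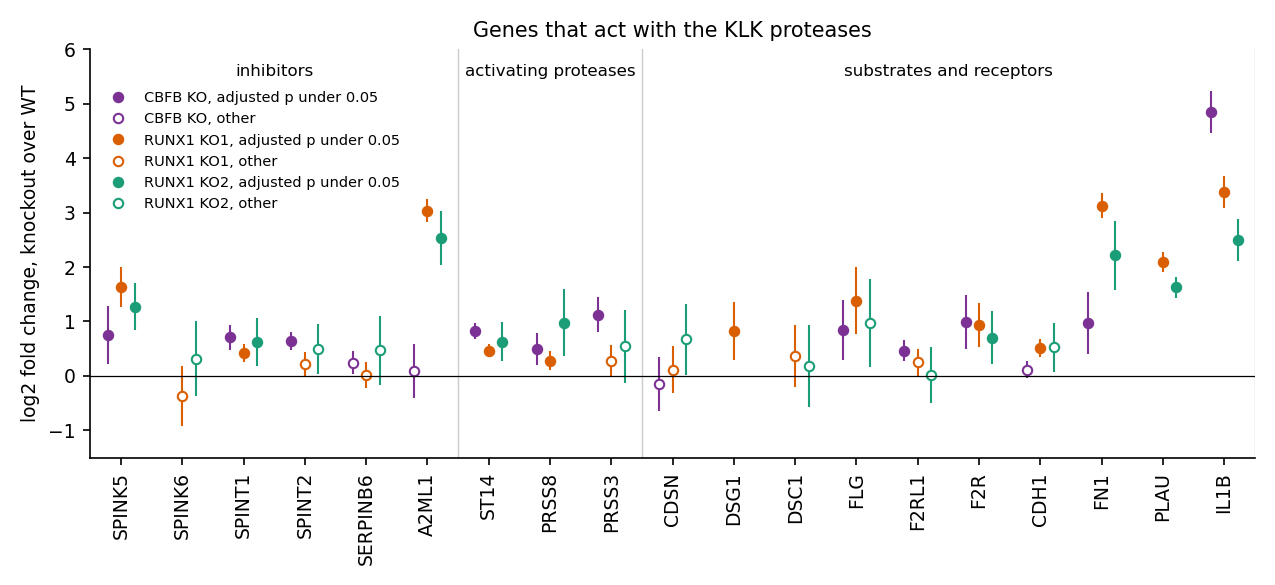
Log2 fold change with 95% intervals of the tested inhibitors, activating proteases, substrates and receptors in each knockout against its WT, filled where the adjusted p was under 0.05. A2ML1 stands at 3.04 and 2.53 in the RUNX1 clones and at 0.09 in CBFB KO, whereas IL1B stands at 4.85 in CBFB KO.

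Genes of the cornified layer, the tissue in which KLK5 and KLK7 are best known, changed in part. Of 18 on the list, 10, 15 and 13 were tested, and 3, 8 and 5 rose, beside 11.7%, 19.7% and 8.76% of all genes, while KRT10 fell in KO1 by 0.45. The medians were 0.23, 0.58 and 0.68. IVL, which encodes involucrin, rose by 1.22 in CBFB KO and by 2.42 and 2.16 in the clones. SBSN, which encodes suprabasin, had 0.11 in CBFB KO and rose by 2.57 and 1.99 in the clones. SPRR1A rose by 1.81 and 1.06 in the clones, FLG by 1.38 and CALML5 by 1.97 in KO1, TGM1 by 1.08 in KO2, and SPRR2D by 1.21 in CBFB KO and 1.10 in KO2.

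Markers of cell types moved as well. Of 6 basal markers, 5 rose in each of the CBFB KO and KO1 tables, beside 11.7% and 19.7% of all genes. Among them were KRT14 (2.97 and 2.95) and TP63 (0.76 and 1.08). KRT14 was not listed for KO2, where 2 of the 5 listed markers rose, beside 8.76% of all genes, and KRT17 had 1.27. KRT5 fell by 0.27 in CBFB KO and by 0.24 in KO1. Of 6 luminal markers, 5 were tested in each table, and 2, 1 and 1 rose, beside 11.7%, 19.7% and 8.76% of all genes. KRT8 rose by 1.36, 0.44 and 1.01, KRT18 by 0.92 in CBFB KO, and GATA3 fell by 0.26 in KO1. PGR was not listed. Of 5 fibroblast markers, 3 were tested in each table, and 1 rose and 1 fell each time. The shares of all genes that fell were 7.97%, 19.9% and 6.08%. COL1A1 rose by 1.40, 1.75 and 1.36 and DCN fell by 1.06, 1.80 and 1.61. COL3A1 was not listed and COL1A2 had a mean of 0.145 in the CBFB table alone. Of 5 leukocyte markers, 2 were tested in each table, and 1, 1 and 0 rose, beside 11.7%, 19.7% and 8.76% of all genes. CD68 rose by 0.69 in CBFB KO and 0.52 in KO1, and CD3E had means under 1. The summed means of the leukocyte markers ran from 302 to 446 and those of the fibroblast markers from 246 to 315. The part of these markers in the values of the KLK genes was not tested.

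The 5 genes whose 3 log2 fold changes lay nearest to those of KLK5, among 10053 genes whose mean reached 100 in every table, were BAG2, LYPD3, RASAL1, MSLN and CSF1R. For BAG2 the values were -0.10 (CBFB KO), 1.19 (KO1) and 1.46 (KO2), at a Euclidean distance of 0.216. LYPD3, RASAL1, MSLN and CSF1R followed at distances of 0.243, 0.321, 0.343 and 0.372.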

How the data were processed

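RNA of 18 MCF10A samples was sequenced. The labels give a TruSeq mRNA kit whereas the study's methods give depletion of ribosomal RNA, and this was not resolved. The submitters' processing notes name Trimmomatic, STAR, DESeq2 and the build hg19, and the annotation is not given in the sources used here. The 3 deposited tables hold comparisons made by the authors, and their columns were used as deposited because 0 columns of per-sample values were present. The deposited mean of normalized counts is a signal over all libraries compared. The deposited log2 fold changes and SEs are moderated by the authors' DESeq2 run toward 0 at few reads. The deposited score is the log2 fold change over its SE, and the deposited p-values are two-sided Wald p-values with Benjamini-Hochberg adjustment by the authors.

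From these, WT and knockout levels (WT is 2 times the mean over 1 plus the fold), 95% Wald intervals and differences between tables were computed with Python 3.11.15, pandas 2.3.3, numpy 2.4.6 and scipy 1.17.1, after a check on simulated data. Genes with an adjusted p under 0.05 were said to rise or fall, and those with a fold of at least 2 as well were called changed. Scaled reads are levels per 1000000 of the table's summed means. Total reads per library are unknown. All 10 members were named, with list genes called changed in at least 1 table (otherwise the member with the highest mean), the 5 genes nearest to the most abundant member, and both targeted genes; genes outside this rule are named as examples of list values and were chosen after their values were seen. The members and lists were chosen with earlier results of these data known. Transcript lengths and exon overlaps came from GENCODE release 29 and promoters from RefSeq (GRCh38.p14), which is not the build of the files, so coordinates are given for promoters alone. Alternatives were another fold or p threshold, a mean of at least 10, centring on the median gene, and removal of the trend on length and GC content. Other matrices named in the labels were not used here.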

Additional observations from a re-analysis of the deposited data

Results flagged for a closer look

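In 4 cases the response of a member differed between CBFB KO and a RUNX1 clone by the test of the difference itself. The CBFB KO log2 fold change minus that of KO1 was -1.06 for KLK5, 1.09 for KLK7 and -0.72 for KLK10, and minus that of KO2 it was -1.57 for KLK5. KLK5 had 92.4 normalized reads summed over the 6 libraries of the CBFB table, KLK10 52.8 and KLK7 37.0, against 5642, 4691 and 1570 over the 8 libraries of the KO1 table. The part of this gap in the differences was not tested.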

How the results depend on the processing

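Without a fold threshold, 3 members were called in KO1 and 4 in KO2, with a 4-fold threshold 0 in each, and with the trend on transcript length and GC content removed 2 in each, beside 1 in each as reported. The KO1 median was -0.0630 among members with a mean of at least 10, a setting that left 1 member differing between CBFB KO and KO1 because KLK7 and KLK10 were no longer tested. Removing the trend turned the sign of KLK14 in CBFB KO (-0.0766) and of KLK8 (0.0926) and KLK9 (0.0668) in KO1, none of which passed the test. Of 142 alternative values of single members, 130 kept their direction and their call, which needs both the p and the fold threshold. By adjusted Wald p alone, KLK14 in KO2 (0.0346) missed the threshold of 0.01. KLK11 in KO1 went from 0.0772 to 0.0304 with the trend removed. Centring on the median gene, or WT levels from the KO2 table, both chosen after seeing the data for the WT ratio, left 5 members over 32-fold. No paired analysis was possible because the tables hold no value per library, and leaving out a replicate was not possible for the same reason. In the CBFB table the members had 10.4 to 92.4 normalized reads over all 6 libraries.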

Other observations

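Receptors for steroid hormones and vitamin D, through which kallikrein-related genes are known to be regulated in several tissues, were examined in the same tables. Of 5 on the list, 3 were tested in CBFB KO, where 1 fell, beside 7.97% of all genes, and the median log2 fold change was -0.40. In each RUNX1 clone 4 were tested and none passed, beside 39.5% of all genes in KO1 and 14.8% in KO2. The medians were 0.06 in KO1 and -0.07 in KO2, and none had an unadjusted p under 0.05 in the deposited Wald test. NR3C1, which encodes the receptor for the hydrocortisone in the medium, fell by 0.40 on the log2 scale in CBFB KO and had values of -0.02 and -0.13 in KO1 and KO2. VDR had -0.06, 0.14 and 0.07. ESR1 had a mean of 77.6 normalized reads in the CBFB table and a log2 fold change of -0.56 there (adjusted p = 0.0665), and PGR was not listed.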
